A study of Homo sapiens with 8 samples.

Results

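A set of 8 regulators of embryonic mesoderm was followed across the 4 groups of an ethanol experiment on human embryonic stem cells: HAND1, HAND2, TWIST1, PDGFRA, DNM3OS, PRRX1, FOXF1 and TBX20. They are 8 of the 19775 genes that had a probe set of their own on the arrays, and 14 of the 54675 probe sets named 1 of them and no other gene. Where a gene had several, its main value was chosen by signal, as the probe set that was brightest on average across the 8 arrays. The genes themselves were selected with results of these arrays in view, including the ethanol change in embryoid bodies. That change is therefore given as a description, without a test.

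The cells carried the label H9, an established human embryonic stem cell line, and were grown in mTeSR medium. They were either undifferentiated or had formed embryoid bodies, the aggregates in which pluripotent cells differentiate into mixed cell types. Each stage was exposed to 0 or 20 mM ethanol for 24 h. Every combination was run on 2 arrays, A and B, which the labels describe as duplicates without naming separate cultures, so the p-values measure the spread between these arrays, which may be technical. They give no age for the embryoid bodies.

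The values are array signals in arbitrary units. The array medians were 69.2 and 70.8 in undifferentiated controls and 79.4 and 74.1 in undifferentiated cells with ethanol. They were 85.1 on both control embryoid body arrays and 102 on both ethanol-treated ones. Across the 14072 genes tested below, arrays of the same group correlated at 0.981 to 0.988, and those of the other stage at 0.872 to 0.894. On 4 of the 8 arrays, all of 1 stage, transcripts that distinguish cell lines did not match the line named in the labels. Cell line and stage therefore cannot be told apart in the comparisons of stage below, nor where the ethanol change is compared between stages. The comparisons of ethanol alone lie within a stage. None of the 8 genes is on a sex chromosome.

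Mesoderm arises from cells that leave the epiblast through the primitive streak, and its lateral plate gives rise to heart, limb bud and gut mesenchyme and to extraembryonic mesoderm. HAND1, HAND2 and TWIST1 are basic helix-loop-helix (bHLH) transcription factors, which bind DNA as dimers at E-boxes, sites with the letters CANNTG. ID proteins are helix-loop-helix proteins without a DNA-binding region and block such dimers. PDGFRA is the receptor tyrosine kinase for platelet-derived growth factors that marks early mesoderm and mesenchyme. PRRX1 is a homeobox factor of limb and craniofacial mesenchyme, FOXF1 a forkhead factor of the mesoderm around the gut, and TBX20 a T-box factor of the heart. DNM3OS is a long noncoding RNA transcribed from the strand opposite DNM3, and the miR-199a and miR-214 precursors are cut from it.

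The mature miRNAs on the DNM3OS strand are shown because DNM3OS signal is the signal of their host transcript, not of the miRNAs. RefSeq on GRCh38.p14 places 6 mature miRNAs inside DNM3OS, 4 on its own strand and 2, miR-3120-5p and miR-3120-3p, on the opposite strand. The 4 lie on the minus strand at chr1:172138816-172138837, chr1:172138857-172138878, chr1:172144554-172144575 and chr1:172144592-172144614, in the order printed, with the seed, bases 2 to 8, in capitals.
hsa-miR-214-3p: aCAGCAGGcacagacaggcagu
hsa-miR-214-5p: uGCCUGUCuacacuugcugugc
hsa-miR-199a-3p: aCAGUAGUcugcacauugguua
hsa-miR-199a-5p: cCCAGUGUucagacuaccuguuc
None of the 6 shared a seed with another. The same mature miR-199a-3p is also encoded by MIR199A1 and MIR199B, and miR-199a-5p by MIR199A1. The miRNAs themselves were not analysed here, since 0 probe sets name their genes.

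The promoter windows of DNM3OS and PDGFRA are shown because they held the most E-boxes among the members' windows. Each runs from 250 bases before the RefSeq start site to 50 after it, 5′ to 3′ on the gene's strand, with E-boxes in capitals. The DNM3OS window is chr1:172144786-172145085 on the minus strand, and the PDGFRA window is chr4:54229043-54229342 on the plus strand.
DNM3OS: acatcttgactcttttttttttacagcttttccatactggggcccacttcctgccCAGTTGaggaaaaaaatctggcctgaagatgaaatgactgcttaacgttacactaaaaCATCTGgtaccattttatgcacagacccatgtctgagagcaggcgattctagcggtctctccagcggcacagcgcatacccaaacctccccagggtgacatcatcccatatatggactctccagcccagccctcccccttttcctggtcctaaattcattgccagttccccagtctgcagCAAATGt
PDGFRA: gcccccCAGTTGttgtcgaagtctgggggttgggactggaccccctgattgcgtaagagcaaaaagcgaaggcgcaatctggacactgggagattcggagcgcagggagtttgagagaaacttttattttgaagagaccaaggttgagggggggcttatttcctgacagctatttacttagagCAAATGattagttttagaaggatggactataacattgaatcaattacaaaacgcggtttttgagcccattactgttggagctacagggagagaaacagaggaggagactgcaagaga
CANNTG reads as CANNTG on both strands, so 1 search covers them. DNM3OS held 3 E-boxes, with first bases at -195, -137 and 44 from the start site, and the one at -137 is CATCTG, which reads CAGATG on the other strand. PDGFRA held 2, at -244 and -67. A second PDGFRA window held 1, the HAND2 window held 1, and the windows of HAND1, PRRX1 and TBX20 held 0. Among all 34943 windows of this length, 68.7% held at least 1 E-box, 36.5% at least 2 and 15.3% at least 3, and 14.7% held CATCTG or CAGATG. These matches describe letters in the sequence and not binding. TWIST1 and FOXF1 had no window in the table used.

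**Figure D1:**
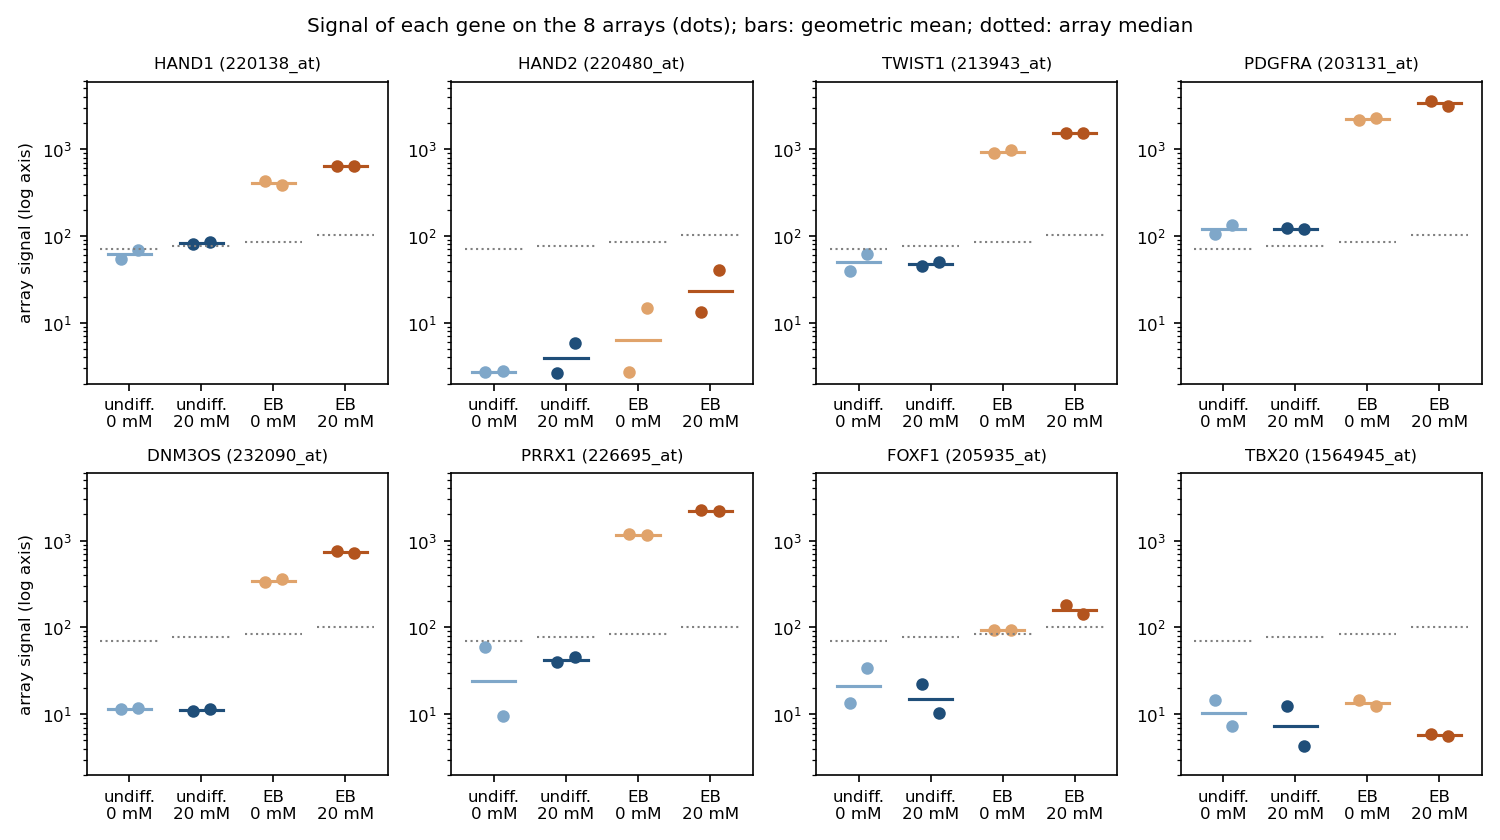
Signal of the main probe set of each of the 8 genes on a log axis in arbitrary units, with 1 point per array in undifferentiated cells (undiff.) and embryoid bodies (EB) at 0 or 20 mM ethanol a bar at the geometric mean of the 2 arrays and a dotted line at the array medians. In 6 panels every embryoid body array lies above every undifferentiated array, and HAND2 and TBX20 stay at or below 40.7.

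Embryoid bodies held far more RNA of 6 of the 8 genes than undifferentiated cells did. Without ethanol, PDGFRA rose by 18.6-fold, TWIST1 by 18.8-fold, DNM3OS by 29.9-fold, PRRX1 by 49.0-fold with a wide error given below, HAND1 by 6.61-fold and FOXF1 by 4.37-fold. HAND2 and TBX20 stayed below the median of every array and were not tested. In the 6 genes, all embryoid body arrays lay above all undifferentiated arrays. The share of all tested genes that met this was not counted, so it is given as a description. Since the arrays hold RNA of whole cultures, more cells of a type and more RNA per cell cannot be told apart.

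A gene was tested where at least 2 arrays lay above their own median, and limma's moderated test was fitted to all 14072 such genes with Benjamini-Hochberg adjustment at 0.05. All 6 tested members were called higher in embryoid bodies at 0 mM, where 28% of all tested genes were called higher, and all 6 at 20 mM, where 29.2% were. Lower calls made up 24.7% of all tested genes at 0 mM and 27.1% at 20 mM. TWIST1, DNM3OS, PRRX1 and FOXF1 passed the filter only through their 4 embryoid body arrays, so they had to differ between stages. Neither their count nor their stage p-values below support anything. The genes were also proposed with earlier results in view, so the adjusted p-values below are not independent evidence. A signal below the array median is imprecise, and a fold against it is too.

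Among the bHLH factors, HAND1 acts in the extraembryonic mesoderm, trophoblast and heart. Its signals were 55.0 and 69.2 in undifferentiated controls, 81.3 and 85.1 in undifferentiated cells with ethanol, 427 and 389 in control embryoid bodies and 631 and 646 in embryoid bodies with ethanol. The 4 groups did not overlap, and both stages were higher with ethanol. Of all tested genes, 15.4% in undifferentiated cells and 29.4% in embryoid bodies had both ethanol arrays above both controls. Against undifferentiated cells, embryoid bodies were higher by 2.72 ± 0.12 on the log2 scale (SE, n = 2 arrays a group) at 0 mM (limma adjusted p = 6.65e-05) and by 2.94 at 20 mM (limma adjusted p = 4.51e-05).

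TWIST1 is a factor of cranial and limb mesenchyme and a driver of the epithelial-to-mesenchymal transition. It read 39.8 and 61.7 in undifferentiated controls, 44.7 and 50.1 in undifferentiated cells with ethanol, 891 and 977 in control embryoid bodies and 1549 on both arrays of ethanol-treated ones. In undifferentiated cells the ethanol arrays lay between the controls, whereas in embryoid bodies both lay above them. The stage difference was 4.24 ± 0.20 (log2, SE), or 18.8-fold, at 0 mM (limma adjusted p = 8.21e-05) and 5.03, or 32.7-fold, at 20 mM (limma adjusted p = 4.19e-05).

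HAND2, which acts in heart, limb bud and neural crest, read 2.69 and 2.75 in undifferentiated controls, 2.63 and 5.89 in undifferentiated cells with ethanol, 2.69 and 14.8 in control embryoid bodies and 13.5 and 40.7 in embryoid bodies with ethanol. The highest array was 1 of the ethanol-treated embryoid bodies, but the embryoid body groups overlapped each other and no array passed its median. When all 19775 genes were entered without a filter, the limma adjusted p of the stage difference was 0.406 at 0 mM and 0.103 at 20 mM. HAND2-AS1 starts 229 bases from HAND2 on the opposite strand. Its brighter probe set read 25.7, 3.55, 3.31 and 3.72 on the undifferentiated arrays, 25.1 and 17.4 in control embryoid bodies and 107 and 93.3 in ethanol-treated ones. It was above the median on 1 array and was not tested, and its second probe set read at most 8.71.

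PDGFRA was the receptor among the members. Its main probe set read 105 and 135 in undifferentiated controls, 123 and 120 in undifferentiated cells with ethanol, 2138 and 2291 in control embryoid bodies and 3548 and 3162 in embryoid bodies with ethanol. It was the member above the median on all 8 arrays. Embryoid bodies were higher by 4.22 ± 0.14 (log2, SE) at 0 mM (limma adjusted p = 2.79e-05) and by 4.78, or 27.5-fold, at 20 mM (limma adjusted p = 1.81e-05).

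The other 3 PDGFRA probe sets gave a smaller stage difference or were too dim. The second read 63.1 to 85.1 in undifferentiated cells and 87.1 to 151 in embryoid bodies, a log2 difference of 0.47 at 0 mM that was not called when it stood for the gene (limma adjusted p = 0.134), and of 1.20 at 20 mM that was called (limma adjusted p = 0.00674). Every embryoid body array of it lay above every undifferentiated one. The remaining 2 lay below the median on every array, with signals of at most 75.9 and 11.5. The 18.6-fold stage difference of PDGFRA therefore rests on 1 of its 4 probe sets.

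DNM3OS showed 11.5 and 11.7 in undifferentiated controls, 11.0 and 11.5 in undifferentiated cells with ethanol, 331 and 363 in control embryoid bodies and 759 and 724 in embryoid bodies with ethanol. The undifferentiated arrays were all below their medians and lay close together, and the embryoid body arrays formed separate levels by dose. The stage difference was 4.90 ± 0.078 (log2, SE) at 0 mM (limma adjusted p = 4.69e-06) and 6.05, or 66.1-fold, at 20 mM (limma adjusted p = 4.88e-06). Its second probe set read 1.41 to 2.34 in undifferentiated cells, 95.5 and 117 in control embryoid bodies and 186 and 214 with ethanol. Both probe sets had the same order of groups.

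DNM3, the gene for a dynamin GTPase that holds DNM3OS inside it on the opposite strand, was not called between stages. Its main probe set read 67.6 to 105 in undifferentiated cells and 70.8 to 132 in embryoid bodies, and the stages overlapped. The stage difference was 0.18 (limma adjusted p = 0.689) at 0 mM and 0.30 (limma adjusted p = 0.507) at 20 mM on the log2 scale. Its second probe set went the other way, with 46.8 to 83.2 in undifferentiated cells and 25.1 to 46.8 in embryoid bodies. That probe set was above the median on 1 array, and the third was below it on every array.

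PRRX1 read 60.3 and 9.55 in undifferentiated controls, 39.8 and 45.7 in undifferentiated cells with ethanol, 1202 and 1148 in control embryoid bodies and 2239 and 2188 in embryoid bodies with ethanol. The undifferentiated controls differed more from each other than from the ethanol arrays, which lay between them. The stage difference was 5.61 ± 0.78 (log2, SE) at 0 mM (limma adjusted p = 0.00231) and 5.70, or 51.9-fold, at 20 mM (limma adjusted p = 0.00186). The SE is pooled over the groups, and the SD of the 2 log2 values was 1.88 in the undifferentiated controls and at most 0.14 in the other groups. The 0 mM difference was 6.94 without undifferentiated control A and 4.29 without control B, so that 1 array moved the fold by more than 1.5 times. PRRX1 passed the filter only through its embryoid body arrays, so its calls by stage support nothing. Its other probe sets gave stage differences of 2.36 and 6.41 at 0 mM, and every embryoid body array was above every undifferentiated one in both.

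FOXF1 read 13.5 and 33.9 in undifferentiated controls, 22.4 and 10.2 in undifferentiated cells with ethanol, 93.3 on both control embryoid body arrays and 182 and 141 in embryoid bodies with ethanol. The undifferentiated groups overlapped, and both were below the embryoid bodies. The stage difference was 2.13 ± 0.53 (log2, SE) at 0 mM (limma adjusted p = 0.0178) and 3.41, or 10.6-fold, at 20 mM (limma adjusted p = 0.00285). Without undifferentiated control A, the 0 mM difference was 1.46 (limma adjusted p = 0.0658) and without control B it was 2.79 (limma adjusted p = 0.0111), and without embryoid body control A or B the adjusted p was 0.0700 or 0.0710. FENDRR, the noncoding RNA beside FOXF1, read 21.9 to 85.1 in undifferentiated cells and 43.7 to 66.1 in embryoid bodies, overlapped between the stages and was not tested.

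TBX20 read 14.5 and 7.24 in undifferentiated controls, 12.6 and 4.27 in undifferentiated cells with ethanol, 14.8 and 12.3 in control embryoid bodies and 5.89 and 5.62 in embryoid bodies with ethanol. It lay below the median on every array and was the member with a lower mean in ethanol-treated embryoid bodies. Entered without a filter, its stage difference had a limma adjusted p of 0.652 at 0 mM and 0.695 at 20 mM.

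**Figure D2:**
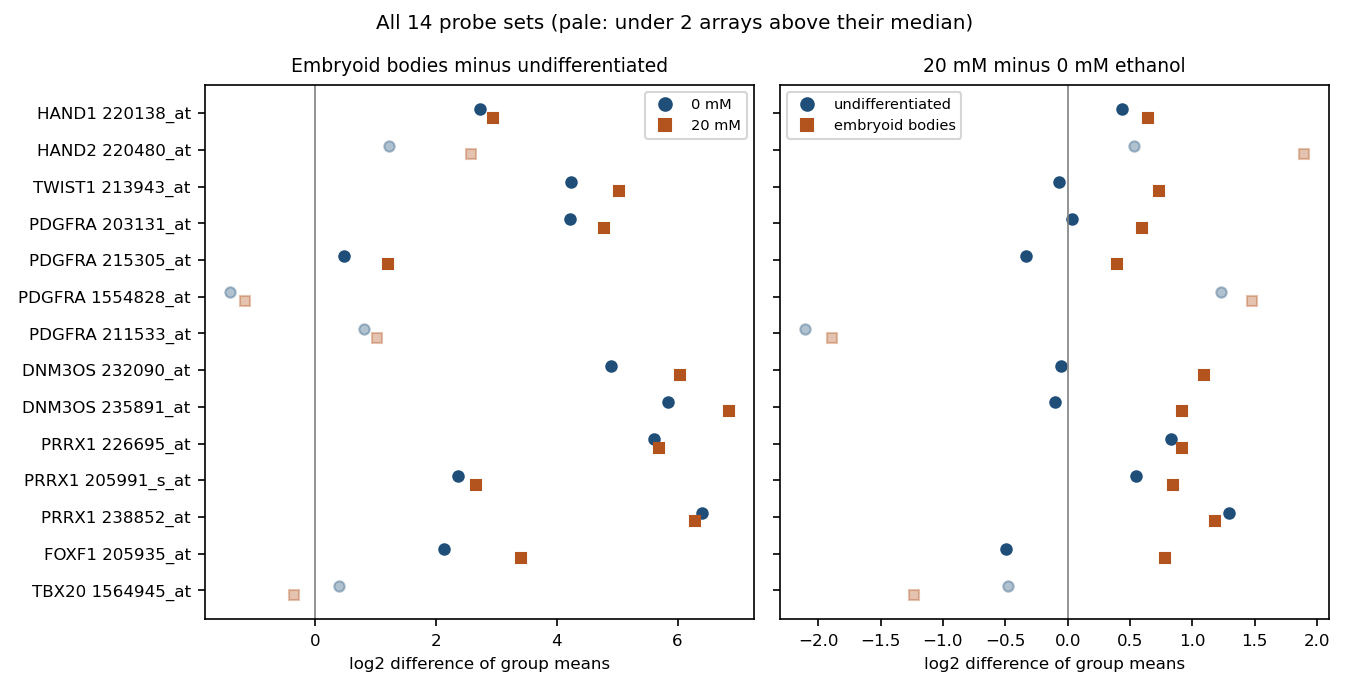
Log2 differences of group means for all 14 probe sets, between stages at 0 and 20 mM ethanol (left) and between ethanol doses in undifferentiated cells and embryoid bodies (right), with pale symbols for probe sets above the median on fewer than 2 arrays. The 2 probe sets of DNM3OS and the 3 of PRRX1 lie at 2.36 or more for stage, while the second of PDGFRA lies at 0.47 and 1.20 and its first at 4.22 and 4.78.

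No member was called for ethanol in undifferentiated cells. The count was 0 of 6, against 0.00711% of all tested genes called, which is 1 gene, and the lowest adjusted p among the members was 0.58. HAND1 was higher by 0.43 ± 0.12 on the log2 scale, or 1.35-fold (limma adjusted p = 0.58), and was the 1 tested member with both ethanol arrays above both controls, a condition met by 15.4% of all tested genes. The HAND1 change was 0.30 with every array centred on its median and 0.30 with quantile normalisation. TWIST1 differed by -0.066 ± 0.20 (limma adjusted p = 0.98), PDGFRA by 0.033 ± 0.14 (limma adjusted p = 0.98) and DNM3OS by -0.050 ± 0.078 (limma adjusted p = 0.956). PRRX1 and FOXF1 differed by 0.83 ± 0.78 and -0.50 ± 0.53, which their own arrays cannot separate from no change. Without undifferentiated control A, PRRX1 was 2.16 higher and was called (limma adjusted p = 0.0183), so that its result rests on this array.

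In embryoid bodies, the 6 tested members were all higher after 24 h of 20 mM ethanol. DNM3OS was 2.14-fold higher, PRRX1 1.88-fold, FOXF1 1.72-fold, TWIST1 1.66-fold, HAND1 1.57-fold and PDGFRA 1.51-fold, and in each the ethanol arrays did not overlap the controls. Of all tested genes, 29.4% had both ethanol arrays above both controls. The members were selected with this change known, so these counts describe the choice and support nothing. The median change of the tested members was 0.76 on the log2 scale and that of all tested genes was 0.017, and of all 8 members 7 were positive.

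The other probe sets gave the same direction for DNM3OS and PRRX1. The second probe set of DNM3OS was 1.88-fold higher with ethanol in embryoid bodies, and the 2 others of PRRX1 were 1.80-fold and 2.27-fold higher, each without overlap. The second PDGFRA probe set was 1.32-fold higher, and its groups touched at 138. Of the 14 probe sets, 9 had both ethanol arrays above both controls in embryoid bodies, and 6 of the 9 were the main probe sets already described. The share of all probe sets was not counted, and the genes were selected with this change known.

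The size of these changes moved with the scaling of the arrays, whose medians were higher in ethanol-treated embryoid bodies. With every array centred on its median, the median change of the 6 members was 0.49 and that of all tested genes was -0.25 (log2). With quantile normalisation they were 0.73 and -0.0145, and with cyclic loess 0.60 and -0.0048. All 6 changes stayed positive under each scaling. Their lowest values over all alternatives were 0.80 for DNM3OS, 0.65 for PRRX1, 0.47 for TWIST1, 0.42 for FOXF1, 0.38 for HAND1 and 0.15 for PDGFRA.

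The ethanol change was larger in embryoid bodies than in undifferentiated cells by 1.28 for FOXF1, 1.15 for DNM3OS, 0.80 for TWIST1, 0.56 for PDGFRA, 0.22 for HAND1 and 0.083 for PRRX1 on the log2 scale. For FOXF1 and PRRX1 the SE of this difference was 0.74 and 1.11, and for DNM3OS it was 0.11. No p-value is given, since the ethanol change in embryoid bodies chose the members. The difference also crosses the stages, so stage and cell line cannot be told apart in it.

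**Figure D3:**
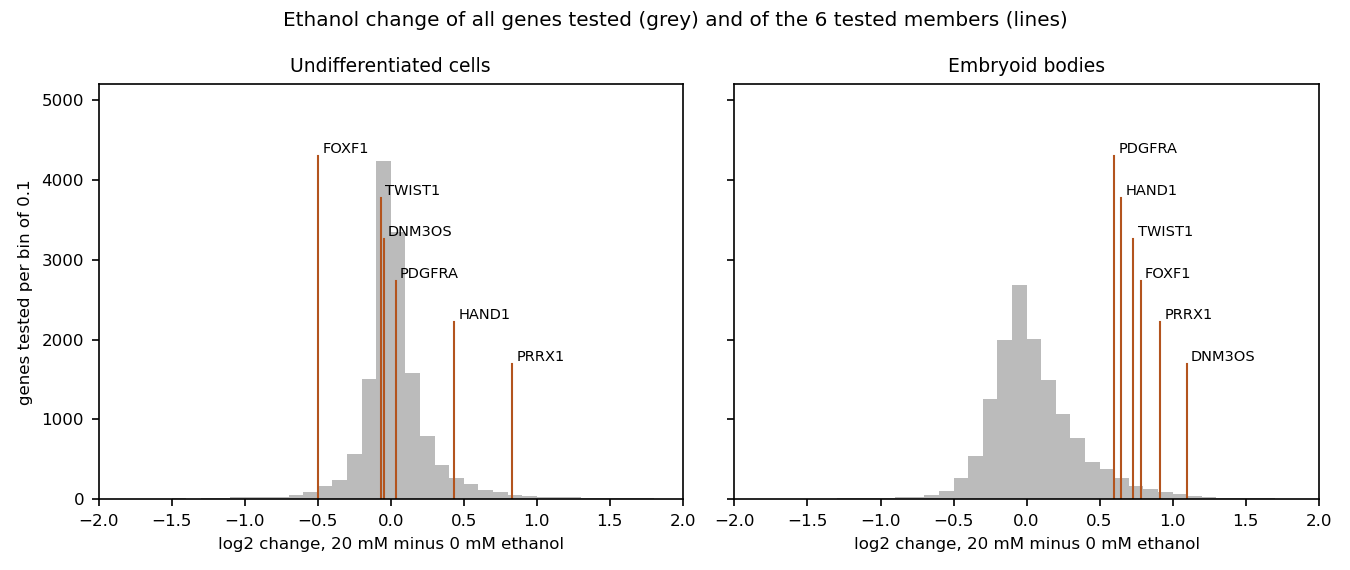
Number of tested genes by log2 ethanol change in bins of 0.1 (grey) for undifferentiated cells and embryoid bodies, with a line at each of the 6 tested members whose height has no meaning. The members lie from -0.50 to 0.83 in undifferentiated cells and from 0.60 to 1.10 in embryoid bodies, where they were selected with this change known.

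Of the genes that act with the bHLH members, the inhibitors rose in embryoid bodies. Among 7 bHLH partners and inhibitors, 4 were called higher and 1 lower at 0 mM. The 4 were ID1 (1.63, limma adjusted p = 0.000328), ID2 (1.13, limma adjusted p = 0.000699), ID3 (0.88, limma adjusted p = 0.000517) and ID4 (2.13, limma adjusted p = 0.00218) on the log2 scale. The gene called lower was the partner TCF4 (-0.28), named after its value was seen. Among 8 other mesodermal bHLH genes, 3 were tested, 0 were called higher and 1 lower. That was TWIST2, the close relative of TWIST1, which fell by 1.84 (limma adjusted p = 0.000501), opposite in direction to TWIST1.

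Most of the other lateral plate and cardiac transcription factors that could be tested were higher in embryoid bodies. Of 26 listed, 17 were tested, and 14 were called higher and 0 lower at 0 mM, 13 and 0 at 20 mM. Of the 14, 7 passed the filter through embryoid body arrays alone, TBX3, FOXF2 and MEOX1 among them, so they had to differ and the count is partly set by the filter. The largest were TBX3 (4.88, limma adjusted p = 4.63e-05), FOXF2 (4.62, limma adjusted p = 0.00297), MEOX1 (4.53, limma adjusted p = 0.0017) and GATA6 (4.38, limma adjusted p = 0.000155). TBX3 is a T-box factor, FOXF2 the forkhead relative of FOXF1, MEOX1 a somite homeobox factor and GATA6 a zinc finger factor of heart and endoderm. NKX2-5 (1.94, limma adjusted p = 0.22), PRRX2 (1.33, limma adjusted p = 0.114) and IRX4 (0.17, limma adjusted p = 0.709) were not called at 0 mM. TBX1, TBX4, TBX5, TBX18, FOXL1, OSR1 and MEOX2 lay below the median on every array and were not tested. The genes not called or not tested were named after their values were seen. 

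Among the ligands and other receptors of the PDGF family, 3 of 6 were called higher and 2 lower at 0 mM. PDGFC, a ligand of PDGFRA, rose by 2.79 (limma adjusted p = 2.84e-05), PDGFRL by 0.76 (limma adjusted p = 0.00161) and PDGFD by 0.70 (limma adjusted p = 0.00223), while PDGFB fell by 1.21 (limma adjusted p = 0.0091). The other gene called lower was the ligand PDGFA (-0.40), named after its value was seen.

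Most listed genes of the epithelial-to-mesenchymal transition were higher in embryoid bodies, but the epithelial cadherin was not lower. Of 8 listed, 7 were tested, and 6 were called higher and 0 lower at 0 mM. The gene not called was CDH1, the cadherin of epithelia that such repressors act on, with signals of 10230 and 10470 and a log2 difference of 0.033 (limma adjusted p = 0.769) at 0 mM and -0.13 (limma adjusted p = 0.238) at 20 mM, and SNAI1 was too dim to test. Both were named after their values were seen. ZEB2 (3.87, limma adjusted p = 2.89e-05), ZEB1 (3.72, limma adjusted p = 4.63e-05) and SNAI2 (3.11, limma adjusted p = 7.7e-05) are repressors of epithelial genes, and FN1 (3.02, limma adjusted p = 0.000299) encodes fibronectin. Of 7 primitive streak markers, 4 were tested and 2 were called higher, FGF8 (5.38, limma adjusted p = 0.000132) and EOMES (2.11, limma adjusted p = 0.000488). TBXT (0.33, limma adjusted p = 0.358) and TBX6 (-0.20, limma adjusted p = 0.547) were not called. MIXL1 and GSC lay below the median on every array and were not tested. The genes not called or not tested were named after their values were seen. Of the genes called higher, ZEB2 and FGF8 passed the filter through embryoid body arrays alone. They had to differ between stages, so their calls and p-values support nothing. In these 6 lists, 0 genes were called for ethanol in either stage.

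Markers of several other cell types were higher in embryoid bodies, as the members were, while the endothelial and pluripotency lists had only lower calls at 0 mM. The part of these cell types in the result was not tested. Beside 28% of all tested genes called higher and 24.7% lower in embryoid bodies at 0 mM, mesenchyme had 7 and 1 of 8, yolk sac and endoderm 6 and 0 of 7, neural crest 7 and 1 of 9, neuroectoderm 4 and 1 of 6, and trophoblast and amnion 4 and 2 of 8. Cardiomyocyte markers had 1 and 0 of 3, endothelial markers 0 and 2 of 3, and pluripotency markers 0 and 4 of 7. In each of the mesenchyme, neural crest and cardiomyocyte lists, 1 of the genes called higher passed the filter through embryoid body arrays alone. The summed signal of the pluripotency markers was 96840 to 105900 in undifferentiated cells and 77500 to 79960 in control embryoid bodies, so that their RNA was still present in embryoid bodies.

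With ethanol in embryoid bodies, the summed signal of the 8 mesenchyme and fibroblast markers went from 44640 and 46120 to 66700 and 67300. The median log2 change of those genes was 0.57, with 7 of 8 positive. The yolk sac and endoderm markers went from 30280 and 30560 to 35710 and 37080, and the pluripotency markers from 77500 and 79960 to 67720 and 70770. No gene of any list was called for ethanol, where 0.0711% of all tested genes were called in either direction. How far the mix of cells moved the members was not tested.

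**Figure D4:**
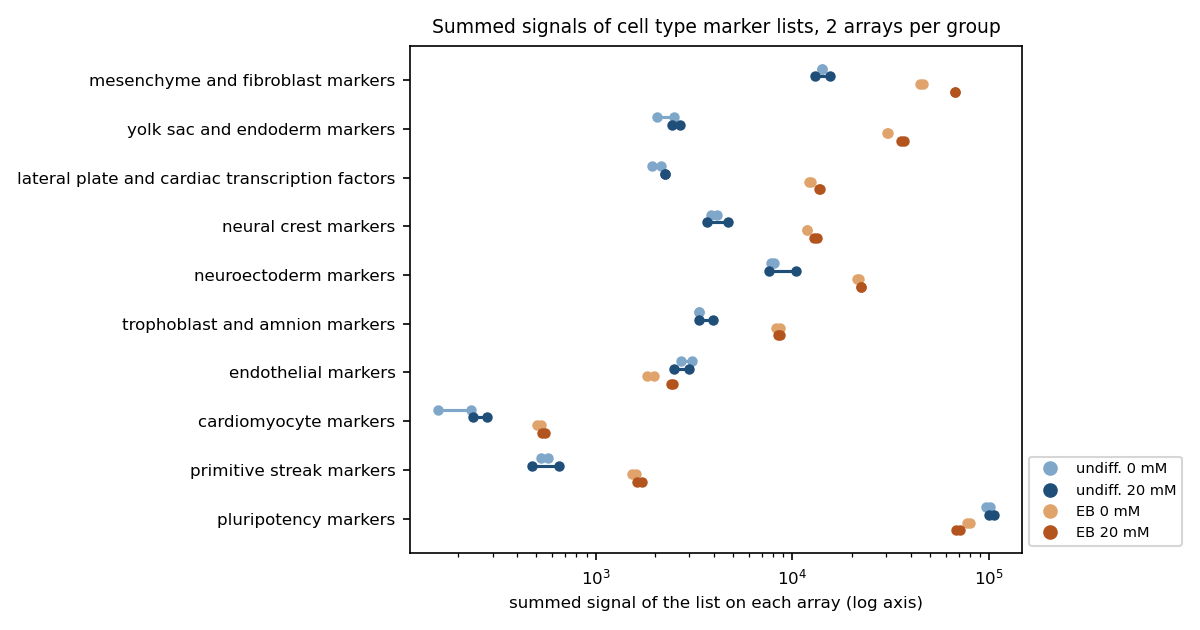
Summed signal of the genes of each of 10 lists on each array, in arbitrary units on a log axis, with 2 points joined by a line per group of undifferentiated cells (undiff.) and embryoid bodies (EB) at 0 or 20 mM ethanol. The mesenchyme list lies at 13010 to 15620 in undifferentiated cells, 44640 to 46120 in control embryoid bodies and 66700 to 67300 in ethanol-treated ones.

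Across the 8 arrays, the profile nearest to HAND1 among other tested genes was EME2, with a root mean square difference of 0.13 between log2 profiles centred on their means, followed by FBN1 (0.16) and COL9A2 (0.17). For TWIST1 they were TFF1 (0.18), GATA6 (0.21) and F2 (0.21). For DNM3OS they were POSTN (0.20), AFP (0.28) and LGR5 (0.31). FBN1 and POSTN encode matrix proteins of mesenchyme, and AFP is the fetal plasma protein of yolk sac and liver. The arrays within a group are not independent of stage and dose, so likeness over 8 arrays is mostly likeness over the 4 group means.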

How the data were processed

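RNA was measured on 8 Affymetrix arrays. The deposited values are log10 signals made by the authors, as deduced from the values: they are rounded to 2 decimals, and the mean signal, leaving out the highest and lowest 2% of probe sets, was 500 to 500.1 on all arrays. The submitters' processing notes name RMA without a version, which does not give such values. A constant factor turned them into log2 values, with no further normalisation.

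Probe sets were named from the platform annotation: 41097 named 1 gene, 1801 several and 11777 none. Genes with at least 2 arrays above their array's median were tested with limma 3.58.1 (R 4.3.3), which fitted the 4 group means to the 8 arrays on 4 residual degrees of freedom plus 1.81 from the variance prior, with Benjamini-Hochberg adjustment over 14072 genes. The code was tested on simulated data. Precision is limited by the number of arrays.

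Members and lists were chosen with earlier results of these data known. Named genes are the members, their noncoding and host neighbours, up to 4 called genes of each pathway list with the largest stage difference at 0 mM, and the 3 nearest profiles of HAND1, TWIST1 and DNM3OS. Deviations of like-lettered arrays correlated at -0.026 to 0.049, so no shift shared by letter was seen across genes. This cannot settle whether the arrays were paired. Alternatives were other filters, probe sets, scalings and variance priors, fits of fewer arrays, a replicate block and each replicate left out. Promoter and miRNA sequences are from RefSeq on GRCh38.p14, matched by symbol for 6 of the 8 members.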

Additional observations from a re-analysis of the deposited data

How the results depend on the processing

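The 6 members called higher in embryoid bodies stayed 6 at both doses with the replicate letter as a block, and 0 were then called for ethanol in undifferentiated cells, with 7 positive in embryoid bodies, so the block changed no member's call in these counts. The labels give like-lettered arrays nothing in common but the letter. For ethanol in undifferentiated cells, the count was 0 to 1 when each replicate was left out, the 1 being PRRX1. Signs of small undifferentiated ethanol changes turned. PDGFRA was -0.29 with the mean of its probe sets, -0.33 with its second probe set, -0.0519 with quantile normalisation and -0.10 with median centring. With 1 replicate left out, PDGFRA ranged from -0.15 to 0.22, TWIST1 from -0.38 to 0.25, PRRX1 from -0.50 to 2.16 and FOXF1 from -1.16 to 0.17. The count called higher in embryoid bodies was 5 at both doses with a filter at the 75th percentile, where FOXF1 was not tested. It was also 5 at both doses with the mean of each gene's probe sets, where PDGFRA was not tested. With the second brightest probe set of genes that had several, it was 5 at 0 mM and 6 at 20 mM.

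Over all genes, the count called for ethanol in embryoid bodies was 10, and 0 with the replicate block, 0 to 4 with 1 replicate left out, 62 with quantile normalisation, 477 with the 75th percentile filter, 3880 with median centring and 959 when the variance prior was both trended and robust. The count called by stage ranged from 5259 to 8320 at 0 mM and from 5787 to 9091 at 20 mM, and for ethanol in undifferentiated cells from 0 to 5, and from 0 to 33 with 1 replicate left out. Dim members, HAND2 and TBX20 above all, have signals below the array median, where 2 arrays give little precision.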
